A study of Rattus norvegicus with 4 samples.

Results

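Myosin light chains, the skeletal muscle light chain kinase and the tropomyosins were followed in rat soleus across diet and loss of the nerve. They are 9 genes: the light chains Myl1, Myl2, Myl3 and Mylpf, the kinase Mylk2, and the tropomyosins Tpm1, Tpm2, Tpm3 and Tpm4. They were chosen by gene symbol, as every probe set that the array's annotation gives to exactly 1 of these genes. This gave 9 of the 14217 genes that have a probe set of their own, and 30 of the 31099 probe sets on the array, of which 5 belong to light chains, 2 to Mylk2 and 23 to tropomyosins. All 9 genes matched a gene of the GRCr8 rat annotation, 8 by symbol and 1 by synonym, since the array's annotation lists Mylpf as Myl11. A probe set, a group of short probes for a transcript, has a number and a suffix. In Affymetrix's naming, the suffix a stands for transcripts of the same gene, s for probes shared with other transcripts, and x for probes that may also match unrelated sequence. Of the 30 probe sets, 21 had none of these suffixes, 3 had a, 3 had s and 3 had x. Which tropomyosin transcripts each probe set detects was not analysed here.

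A myosin molecule carries light chains on its neck. The essential light chains (Myl1 in fast fibres, Myl3 in slow fibres and the heart ventricle) stiffen the lever arm, and the regulatory light chains (Mylpf in fast fibres, Myl2 in slow fibres and the ventricle) are phosphorylated by Mylk2 when calcium-bound calmodulin activates it, which increases force at low calcium. Tropomyosin is a coiled coil that lies along the actin filament and, with troponin, covers or frees the sites where myosin binds. Tpm1 gives the fast alpha form, Tpm2 the beta form found in slow and fast fibres, and Tpm3 the slow alpha form, and each of these genes also makes shorter, non-muscle forms from other promoters and exons. Tpm4 is mainly a tropomyosin of the cytoskeleton outside the sarcomere.

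Male Wistar rats, 10 weeks old at the start and labelled 14 weeks old as samples, were fed for 24 days. The control diet was a modified AIN-93G diet with corn oil replacing soybean oil, and the other diet was AIN-93G with genistein, a soy isoflavone, at 0.5 g per kg (0.05%). The labels do not say which oil the genistein diet held. On day 14 the left sciatic nerve was cut out and the right leg had sham surgery, and soleus was taken 10 days later. The 4 groups, sham and denervated muscle on each diet, are each the pooled RNA of 8 rats on 1 array. The sham pool of a diet therefore comes from the other leg of the same operated animals, and no group has a replicate, so no test was run and no value has an error of its own.

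The authors' signals had a trimmed mean of 500.2 units on each array. Signals under 78.9 units, the 40th percentile of all probe sets over the 4 arrays, were raised to that floor before log2, and a probe set counted as measured where at least 1 of the compared arrays was above it. Where 1 array of a pair lay under the floor, the ratio gives the least difference only. The treatment field of 2 samples contradicts their titles, which were used. All 9 listed markers of nerve loss on the array were at least 2-fold higher in the pools titled denervated, the median log2 ratio being 3.26 for control-fed rats and 3.34 for genistein-fed rats. The 9 listed markers of skeletal muscle fibres were all above the floor on every array, the lowest being Pygm, muscle glycogen phosphorylase, at 2342 to 4704 units. Of 5 cardiac markers, Myl7 was below the floor on all arrays and Tnni3 on all but genistein sham (96.1 units), Nppa read at most 105 units and Myh6 110 to 269, whereas Myl4, which embryonic skeletal muscle also makes, read 706 to 2144.

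In denervated soleus most of these probe sets read lower than in sham soleus, on both diets. Of the 30, 29 were measured, and 19 of 29 were at least 2-fold lower on the control diet, where 7.10% of all 14716 measured probe sets with 1 gene symbol were. On genistein 15 of 29 were at least 2-fold lower, where 6.06% of 14836 were. Those at least 2-fold higher numbered 1 on the control diet and 2 on genistein, beside 5.04% and 5.03% of all. The median log2 ratio of the 29 was -1.20 on the control diet and -1.23 on genistein, and that of all probe sets was 0.01 and 0.04. The denervation ratios of the diets share no array. The 1 probe set not measured, 1370513_at of Tpm1, read 2.5 to 12.7 units. In whole muscle, fewer cells of a type and less RNA per cell cannot be told apart, and this holds for every value below.

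Every ratio past 2-fold kept its sign under the scalings tried, but the number past 2-fold varied. Hybridisation controls are bacterial and phage transcripts added to each sample, and scaling to them moved the median of all probe sets to 0.37 on the control diet and 0.52 on genistein. It left 13 of 29 probe sets at least 2-fold lower on the control diet, where 3.29% of all were, and 12 of 29 on genistein, where 2.11% were. That scaling raised the share of higher among all probe sets past 2-fold from 41.5% to 79.0% on the control diet and from 45.3% to 89.5% on genistein. The beta-actin probe sets at the 3′ and 5′ ends, whose ratio grows as RNA is shortened, gave 2.08 in control sham, 2.32 in genistein sham, 3.79 in control denervated and 2.76 in genistein denervated muscle. The same ratio for Gapdh went the other way, at 1.24, 1.20, 1.14 and 1.13 in that order. Their part in the ratios was not tested.

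Both slow light chains were lower after nerve loss, Myl2 by more than Myl3. Myl2, the slow regulatory light chain, read 38169 units in control sham, 9204 in control denervated, 36305 in genistein sham and 5870 in genistein denervated muscle on probe set 1388200_at. Its dimmer probe set 1388293_at read 721, 116, 560.2 and 89.1 units in the same order. On both probe sets the denervated pools lay below both sham pools, by 4.15-fold and 6.22-fold on the control diet and by 6.18-fold and 6.29-fold on genistein. The log2 ratios were -2.05 and -2.64 on the control diet and -2.63 and -2.65 on genistein, so the probe sets of Myl2 differed more on the control diet than on genistein. Each stayed at least 2-fold lower in all 6 alternatives of scaling and floor.

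Myl3, the slow essential light chain, read 42528 units in control sham, 19741 in control denervated, 37585 in genistein sham and 14781 in genistein denervated muscle. Denervated muscle was 2.15-fold lower than sham in control-fed rats and 2.54-fold lower in genistein-fed rats on its only probe set, log2 ratios of -1.11 and -1.35. The ratios were -0.55 and -0.85 under quantile normalization and -0.73 and -0.83 under hybridisation control scaling, which takes Myl3 out of the genes past 2-fold. On both diets Myl3 kept a larger share of its sham signal than Myl2, 46.4% and 39.3% against 24.1% and 16.2% on the brighter Myl2 probe set. In control sham muscle Myl3 ranked 15th by signal on the array and that Myl2 probe set 25th. Whether signals this high follow the amount of RNA evenly was not tested. The summed signal of the 6 slow-fibre markers was 233576 and 212945 units in the control and genistein sham pools and 131934 and 111106 in the denervated pools, with all 6 lower on both diets.

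The fast light chains stayed within 2-fold. Mylpf, the fast regulatory light chain, read 27317 units in control sham, 25815 in control denervated, 25694 in genistein sham and 23286 in genistein denervated muscle. The log2 ratios were -0.08 on the control diet and -0.14 on genistein, and they were 0.41 and 0.48 under quantile normalization and 0.30 and 0.37 under hybridisation control scaling, so the sign of Mylpf depends on the scaling. Myl1, the fast essential light chain, read 42237, 31522, 38489 and 25044 units in the same order, with log2 ratios of -0.42 and -0.62. Under quantile normalization these became 0.09 and -0.04, and under hybridisation control scaling -0.04 and -0.11. Both fast light chains were read strongly on all 4 arrays, and neither passed 2-fold under any scaling tried. Each has only 1 probe set, ranked 17th (Myl1) and 78th (Mylpf) by signal in control sham muscle. How evenly such high signals follow the amount of RNA was not tested here either. The 9 fast-fibre markers had no common direction, with 4 above and 5 below 0 on both diets. On each diet 3 of them were at least 2-fold higher after nerve loss and 1, Myh2, at least 2-fold lower. Myh4, a fast myosin heavy chain, went from 82 to 18730 units in control-fed and from 143.5 to 11286 in genistein-fed rats. Actn3 (230 to 7988 and 549 to 4156 units) and Pvalb (316 to 9658 and 218 to 11911 units) also rose.

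The bases before the start sites of a slow light chain, Myl3, and a fast one, Mylpf, are shown as examples of these promoters, with the motifs of muscle promoters found in them. The sequences are from RefSeq on GRCr8, 250 bases before the annotated start, 5′ to 3′ along the gene, at chr8:119616844-119617093 (+ strand) for Myl3 and chr1:191260039-191260288 (+ strand) for Mylpf. Capitals mark matches on either strand to the E-box (CANNTG, bound by MyoD and myogenin), the MCAT element (CATTCC, bound by TEAD factors), the CArG box (bound by serum response factor) or the MEF2 site.
Myl3: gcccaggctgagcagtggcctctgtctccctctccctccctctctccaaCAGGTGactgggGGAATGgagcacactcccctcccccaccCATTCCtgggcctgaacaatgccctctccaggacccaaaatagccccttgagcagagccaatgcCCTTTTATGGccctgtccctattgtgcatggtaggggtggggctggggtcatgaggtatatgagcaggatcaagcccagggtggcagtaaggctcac
Mylpf: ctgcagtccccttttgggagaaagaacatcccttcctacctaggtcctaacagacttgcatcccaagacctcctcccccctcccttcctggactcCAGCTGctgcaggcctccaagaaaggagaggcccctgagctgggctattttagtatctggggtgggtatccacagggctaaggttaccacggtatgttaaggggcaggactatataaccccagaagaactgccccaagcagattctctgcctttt
The Myl3 window held 1 E-box, 2 MCAT elements and 1 CArG box that did not overlap, with the CArG box 97 to 88 bases before the start. The Mylpf window held 1 E-box, 155 to 150 bases before the start, and neither window held a MEF2 site. Of 33469 promoter windows of the same length, 65.5% held an E-box, 12.1% an MCAT element, 1.50% a CArG box and 1.68% a MEF2 site. These matches describe the letters and not binding, and nothing is read from them about the ratios. The windows of Tpm3, Tpm4 and Myl1 held 1 E-box each and no other motif, that of Tpm2 held none, and that of Tpm1 held 1 E-box and 1 MCAT element. Only 1 window per gene was searched, and whether a tropomyosin window belongs to a muscle or a non-muscle form was not resolved. No window was available for Myl2 or Mylk2.

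Mylk2, the kinase of the regulatory light chains, was lower in denervated muscle on both diets, with the larger ratio on genistein. Probe set 1398821_s_at read 2444 units in control sham, 1161 in control denervated, 2878 in genistein sham and 837 in genistein denervated muscle. Probe set 1398820_at read 535, 233, 933 and 190.1 units. On both, genistein sham was the highest pool and genistein denervated the lowest. The denervated pools were 2.10-fold and 2.29-fold below sham on the control diet and 3.44-fold and 4.91-fold below on genistein. On the control diet neither passed 2-fold under hybridisation control scaling (-0.69 for 1398821_s_at and -0.82 for 1398820_at), and 1398821_s_at was at -0.99 under median scaling. The difference between the diets' log2 ratios (genistein minus control) was -0.71 for 1398821_s_at and -1.10 for 1398820_at. As deposited, the latter was the only one of the 29 at -1 or lower, beside 0.897% of 14157 probe sets measured on both diets. Under hybridisation control scaling the ratios of 1398820_at were -0.82 and -1.78, so its difference no longer reached -1.

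**Figure D1:**
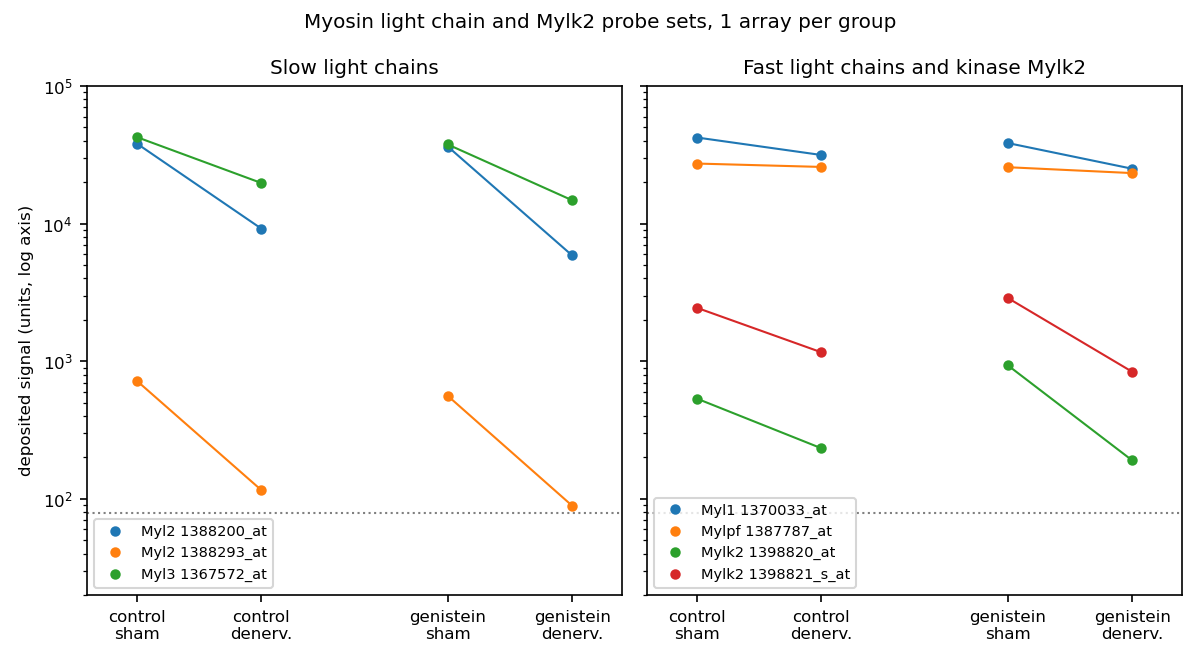
Deposited signal (units, log axis) of each light chain and Mylk2 probe set in the 4 pools, 1 array per group, with a line from sham to denervated muscle for each diet and a dotted line at the floor of 78.9 units. Both Myl2 probe sets, Myl3 and both Mylk2 probe sets slope down on each diet, while Mylpf is nearly level at 23286 to 27317 units.

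Tpm3, slow alpha-tropomyosin, had the lowest denervation ratio of the 29 probe sets on both diets. Probe set 1376929_at, its brightest, read 29301 units in control sham, 1415 in control denervated, 28500 in genistein sham and 836 in genistein denervated muscle. The denervated pools were 20.7-fold and 34.1-fold below sham, leaving 4.83% and 2.93% of the sham signal. The log2 ratios were -4.37 on the control diet and -5.09 on genistein, with 5 of 14716 and 3 of 14836 measured probe sets lower than that.

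The other Tpm3 probe sets were mostly lower as well, by smaller amounts. Probe set 1370339_at read 5864, 1257, 4369 and 1339 units in control sham, control denervated, genistein sham and genistein denervated muscle, and 1383986_at read 3529, 786, 2518 and 804. Those are 4.66-fold and 4.49-fold decreases on the control diet and 3.26-fold and 3.13-fold decreases on genistein. Probe set 1371184_x_at read 1159, 101, 1222 and 124 units, 11.5-fold lower in control-fed and 9.87-fold in genistein-fed rats. Probe sets 1387918_at (723, 123, 608 and 137 units) and 1398303_s_at (858, 117, 695 and 158 units) were at log2 ratios of -2.55 and -2.88 in control-fed rats and -2.15 and -2.13 in genistein-fed rats. With that higher floor their control diet ratios were -1.73 and -1.98. Probe sets 1371239_s_at (904, 122, 791 and 256 units) and 1370340_x_at (903, 190.1, 623 and 265 units) had -2.89 and -2.25 on the control diet, and a smaller -1.63 and -1.23 on genistein. The last was at -0.72 on genistein under hybridisation control scaling. In all, 9 of the 12 Tpm3 probe sets were at least 2-fold lower on the control diet and 8 of 12 on genistein. Without the suffixes s and x the counts were 5 and 4 of 8.

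The remaining Tpm3 probe sets were dim or level. Probe set 1387617_at read 458 units in control sham, 449 in control denervated, 482 in genistein sham and 485 in genistein denervated muscle, log2 ratios of -0.03 and 0.01. It was well above the floor on all 4 arrays, so its level reading is not set by the floor. Probe set 1389846_at, at 85.1 to 148 units, had log2 ratios of -0.79 and -0.69, and 1388268_at, at 48.1 to 156 units, had -0.14 and at least 1.97-fold lower on genistein. Probe set 1370450_at read 169 and 109 units in the control and genistein sham pools and lay below the floor in both denervated pools, at least 2.14-fold and 1.39-fold lower, with the control diet value at -0.77 under hybridisation control scaling. The 12 ratios of this gene thus ran from -4.37 to -0.03 on the control diet and from -5.09 to 0.01 on genistein, against an SD of 0.35 and 0.36 between probe sets of the same gene over 2310 genes.

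Tpm2, beta-tropomyosin, was lower on both of its probe sets. Probe set 1392976_at read 33172 units in control sham, 10819 in control denervated, 29924 in genistein sham and 11150 in genistein denervated muscle, 3.07-fold lower in control-fed and 2.68-fold in genistein-fed rats. The genistein ratio was -0.95 under quantile normalization and -0.91 under hybridisation control scaling, not past 2-fold. Probe set 1372219_at read 5210, 375, 2505 and 559 units. It was 13.9-fold lower on the control diet, with 14 of 14716 probe sets lower still, and 4.48-fold lower on genistein. Its sham pools differed 2.08-fold, and its denervated pools differed in the other direction. The brighter probe set had nearly the same log2 ratio on both diets, -1.62 and -1.42, and the dimmer one had -3.80 and -2.16.

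Tpm1, fast alpha-tropomyosin, was higher in denervated muscle on 5 of its 6 measured probe sets on the control diet and 4 of 6 on genistein (6 of 6 under hybridisation control scaling). Its brightest probe set 1368724_a_at read 21568 units in control sham, 26761 in control denervated, 21863 in genistein sham and 23741 in genistein denervated muscle, log2 ratios of 0.31 and 0.12. Probe set 1370288_a_at read 10703, 17985, 9932 and 16088 units, higher in both denervated pools than in both sham pools, by 1.68-fold and 1.62-fold. Its ratios of 0.75 and 0.70 were 1.08 and 1.18 under quantile normalization. Probe set 1371241_x_at had ratios of 0.09 and -0.14, and both were positive under quantile normalization.

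The dimmer Tpm1 probe sets disagreed with each other. Probe set 1395794_at read 620 units in control sham, 1408 in control denervated, 483 in genistein sham and 2035 in genistein denervated muscle, 2.27-fold and 4.21-fold higher. It was the only probe set of the 29 at least 2-fold higher on both diets, under the deposited scaling. Probe set 1370287_a_at went the other way, at 646, 231, 513 and 373 units, with log2 ratios of -1.48 and -0.46, and the genistein value was 0.05 under hybridisation control scaling. Probe set 1371240_at was above the floor only after nerve loss, at 85.9 units in control denervated and 195 in genistein denervated muscle, at least 1.09-fold and 2.47-fold higher. The 6 measured Tpm1 ratios ran from -1.48 to 1.18 on the control diet and from -0.46 to 2.07 on genistein.

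Tpm4, the cytoskeletal tropomyosin, was at least 2-fold lower after nerve loss in control-fed rats on both of its probe sets, and neither passed 2-fold in genistein-fed rats. Probe set 1371653_at read 1802 units in control sham, 846 in control denervated, 1682 in genistein sham and 1334 in genistein denervated muscle, log2 ratios of -1.09 and -0.34. Probe set 1368838_at read 615, 266, 567 and 604 units, log2 ratios of -1.21 and 0.09. On both probe sets control denervated was the lowest of the 4 pools and the other 3 lay closer together. Under hybridisation control scaling the control diet ratios were -0.71 for 1371653_at and -0.83 for 1368838_at, no longer past 2-fold. The genistein ratios became 0.18 and 0.60 under that scaling, so the sign of the first depends on scaling, and that of the second was -0.01 under quantile normalization.

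Markers of cells outside the fibre are given beside these values. The summed signal of 7 fibroblast markers was 52568 units in control sham, 23593 in control denervated, 53732 in genistein sham and 40188 in genistein denervated muscle. For 6 macrophage and leukocyte markers the sums were 6154, 3342, 6357 and 5734 units, and for 5 endothelial markers 3692, 1824, 3843 and 2645. In these 3 lists control denervated was the lowest pool, as for Tpm4. The 5 adipocyte markers summed to 7258, 3878, 6756 and 6237 units, mostly from Fabp4, whereas Adipoq, Plin1 and Cfd had denervation ratios of 0.95, 1.39 and 1.24 on genistein, with 2 of the 4 measured at least 2-fold higher there and 1 of 4 at least 2-fold lower on the control diet. The 8 smooth muscle markers summed to 24697, 15941, 24008 and 14563 units, mostly from Synpo2, which striated muscle also makes. This sum was lowest in genistein denervated muscle, as Synpo2 was (12833 units, and 14682 in control denervated muscle). Acta2, Tagln, Smtn and Myh11 were lowest in control denervated muscle, at 271, 144, 399 and 320 units. Myocd was below the floor in both denervated pools, and Lmod1 in control sham and genistein denervated muscle. Cnn1, a defining smooth muscle marker, was below the floor on all arrays. On genistein 1 of 7 fibroblast markers was at least 2-fold lower after nerve loss, and on the control diet 5 of 7 were. Lep of the adipocyte markers lay below the floor on all arrays, as did Sox10 among 4 Schwann cell markers, whose sums were 3222, 3362, 3411 and 4494 units, lowest in control sham. The part of these cells in the Tpm4 values was not tested.

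**Figure D2:**
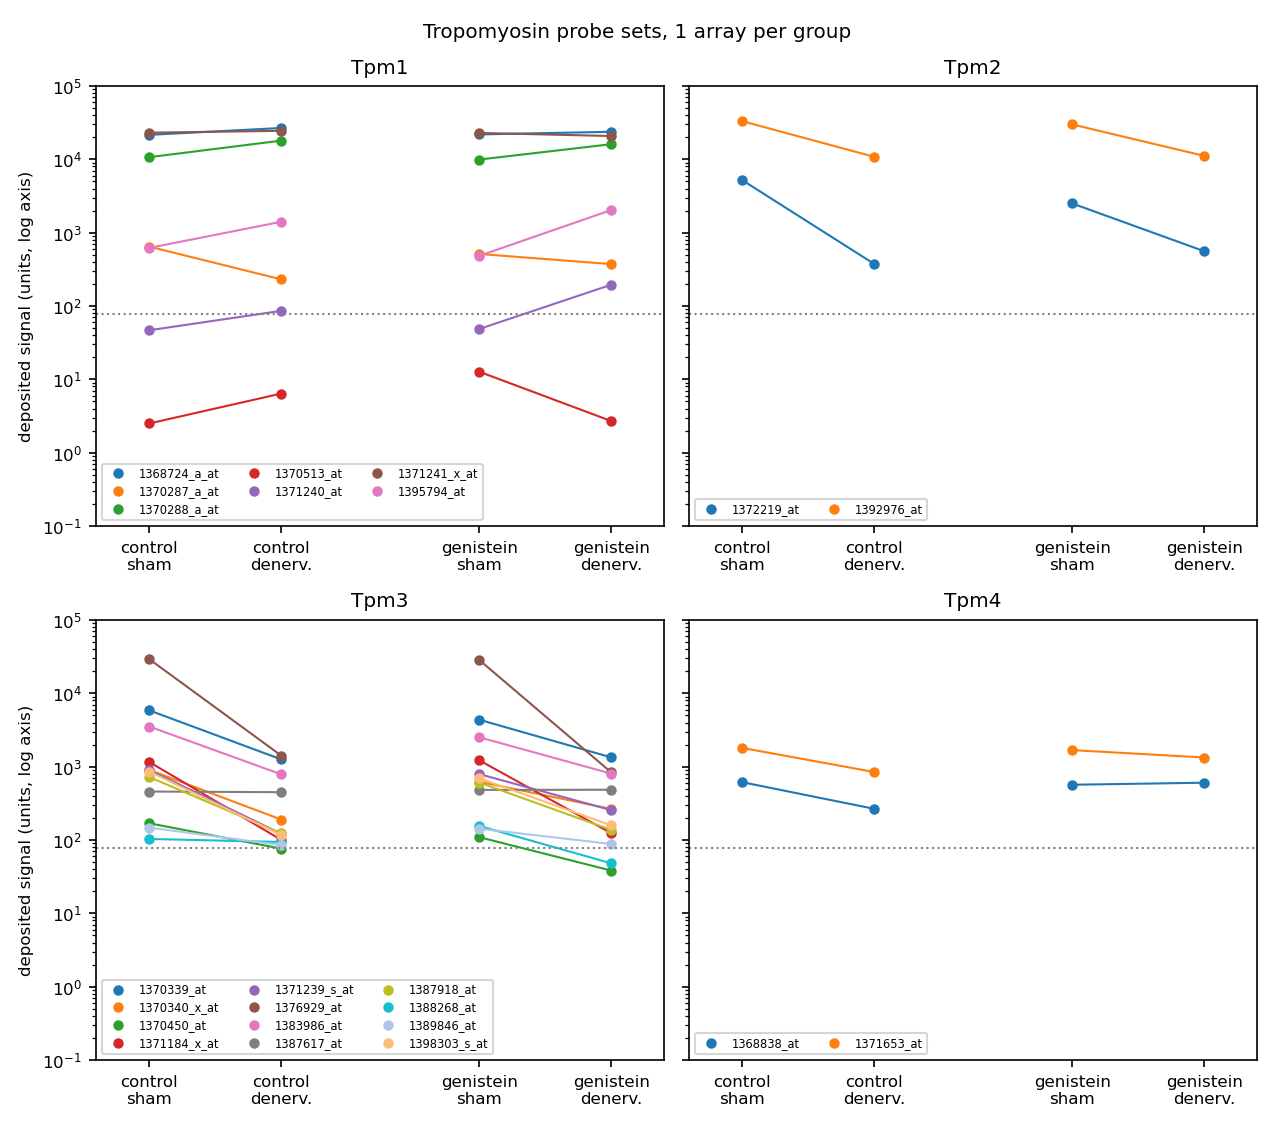
Deposited signal (units, log axis) of each tropomyosin probe set in the 4 pools, 1 array per group, with a line from sham to denervated muscle for each diet and a dotted line at the floor of 78.9 units. Most Tpm3 and both Tpm2 probe sets slope down on each diet, Tpm1 holds probe sets of both directions, and Tpm4 slopes down on the control diet, with 1368838_at nearly level on genistein at 567 and 604 units.

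**Figure D3:**
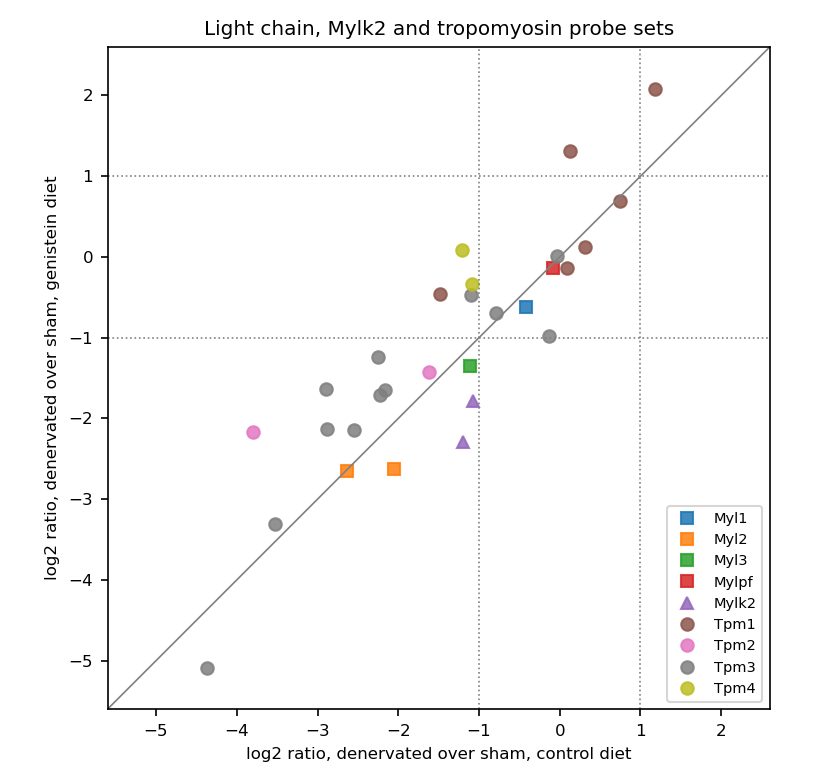
Log2 ratio of denervated over sham for each of the 29 measured probe sets, control diet on the horizontal axis and genistein on the vertical axis, with equal ratios on the diagonal and dotted lines at 2-fold. Tpm3 reaches -4.37 and -5.09 at the lower left, Tpm1 reaches 1.18 and 2.07 at the upper right, and both Tpm4 probe sets lie above the diagonal.

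The next comparison is the diet effect in muscle with an intact nerve. There 1 of 28 measured probe sets passed 2-fold, beside 0.704% of all 14774. It was Tpm2 probe set 1372219_at, at 5210 units in control-fed and 2505 in genistein-fed rats, a log2 ratio of -1.06. Its ratio was -0.99 under quantile normalization, and the brighter Tpm2 probe set had -0.15. The median of the 28 was -0.13, with 22 below 0, and that of all probe sets was 0.00.

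The 5 light chain probe sets had ratios from -0.36 to -0.07, but under quantile normalization 3 of the 5 lay above 0. As deposited, 8 of the 9 skeletal muscle fibre markers (median -0.18) and all 6 slow-fibre markers (median -0.15) also lay below 0. Of the 9 fast-fibre markers 5 did, with a median of -0.01. The 12 Tpm3 ratios ran from -0.63 to 0.59 with a median of -0.22, and the brightest was at -0.04. Mylk2 was at 0.80 on 1398820_at and 0.24 on 1398821_s_at, the only gene of the 9 with all its probe sets above 0. The SD between probe sets of the same gene was 0.26 for this comparison.

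In denervated muscle the diets differed by at least 2-fold on 3 of 28 measured probe sets, beside 1.16% of all 14344, and genistein was the higher on all 3. Among all probe sets past 2-fold 86.7% were higher on genistein, and 65.9% under median scaling. Tpm4 probe set 1368838_at read 266 units in control-fed and 604 in genistein-fed rats, 2.27-fold higher, and its partner 1371653_at was 1.58-fold higher. Tpm1 probe set 1371240_at was also 2.27-fold higher, at 85.9 and 195 units, close to the floor on the control diet. Tpm3 probe set 1371239_s_at was 2.10-fold higher, at 122 and 256 units, and its ratio of 1.07 was 0.23 with the floor at the 60th percentile.

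In denervated muscle all 5 light chain probe sets read lower on genistein under the deposited scaling. Their ratios ran from -0.65 for Myl2 to -0.15 for Mylpf, which was at 0.10 under quantile normalization. As deposited, 8 of the 9 skeletal muscle fibre markers also read lower on genistein, with a median of -0.32. So did 5 of the 6 slow-fibre markers (median -0.23) and 5 of the 9 fast-fibre markers (median -0.19). Among the tropomyosins 16 of 21 read higher, with a median of 0.16, but 11 of 21 did under median scaling, with a median of 0.02. The brightest Tpm3 probe set was at -0.76 (1415 and 836 units). Mylk2 was at -0.29 and -0.47. The median of all probe sets was 0.01 here and -0.12 under median scaling, and the SD between probe sets of the same gene was 0.25. This comparison shares its arrays with the denervation ratios above, so a low reading of the control denervated array enters both.

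**Figure D4:**
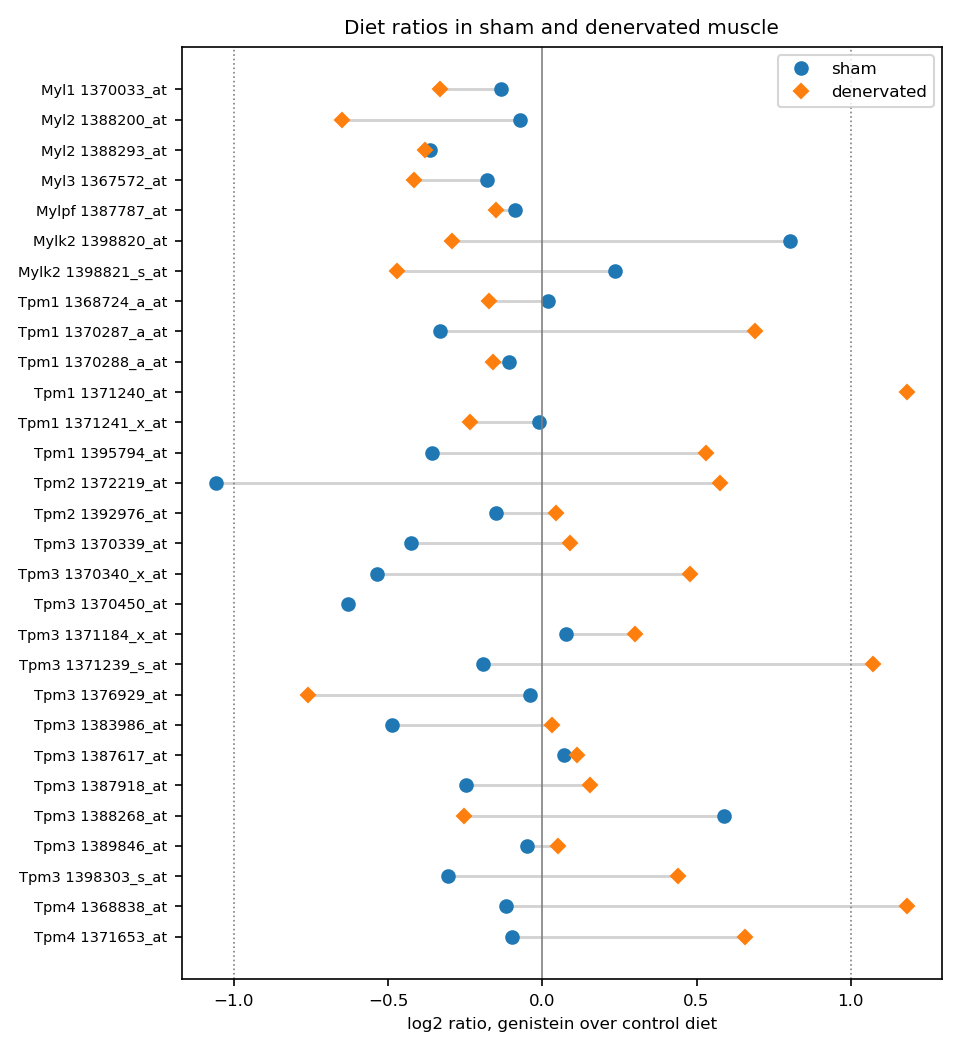
Log2 ratio of genistein over control diet for each probe set in sham muscle (circles) and denervated muscle (diamonds), with dotted lines at 2-fold. The light chains lie below 0 in both under the deposited scaling (under quantile normalization 3 of 5 are above 0 in sham and 1 of 5 in denervated muscle), Mylk2 moves from above to below 0, and both Tpm4 probe sets move from near 0 to 0.66 and 1.18.

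Under the deposited scaling the difference between the diets' denervation ratios was at 1 or more for 6 of the 29 probe sets, beside 2.24% of all. These were Tpm2 1372219_at (1.63), Tpm4 1368838_at (1.30), Tpm3 1371239_s_at (1.26) and 1370340_x_at (1.01), and Tpm1 1371240_at (1.18) and 1370287_a_at (1.02). For 1371240_at both sham pools were at the floor, so its value is set by the denervated pools alone. All 6 were tropomyosins, and in each gene the brightest probe set had a smaller difference, 0.19 for Tpm2, 0.76 for Tpm4, -0.72 for Tpm3 and -0.19 for Tpm1. The 5 light chain differences lay between -0.58 and -0.02. The SD of the difference between probe sets of the same gene was 0.34. Under median scaling the denervation ratios (control diet, genistein) were -1.40 and -0.49 for 1370287_a_at and -2.16 and -1.26 for 1370340_x_at. Under quantile normalization they were -1.51 and -0.56 for 1370287_a_at and -2.26 and -1.34 for 1370340_x_at. Both probe sets thus fell below a difference of 1 under those scalings. With the floor at the 60th percentile, Tpm3 1371239_s_at had -2.06 (control diet) and -1.63 (genistein), so its difference also fell below 1. Tpm1 1371240_at had no value with that floor.

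Other parts of the contractile filament give the setting for these values. Of 15 listed light chains, light chain kinases and myosin phosphatase subunits outside the 9 genes, 11 were on the array under 1 symbol and 10 were measured for the denervation ratios. On the brightest probe set Myl4, the embryonic and atrial essential light chain, had denervation ratios of 1.03 (control diet) and 1.45 (genistein), and Ppp1r12c, a myosin phosphatase subunit, was at -1.18 and -0.52. The other 8 did not pass 2-fold on either diet, and the list medians were -0.42 and -0.31. Myl9, a smooth muscle light chain, was at -0.62 and -0.48, and Mylk, the smooth muscle light chain kinase, at -0.69 and -0.28.

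Of 21 listed partners of the thin filament, 19 were on the array. On each diet 2 of them passed 2-fold upward and 2 downward, of 17 measured on the control diet and 19 on genistein. Tnnt2, cardiac and embryonic troponin T, was at 3.02 and 3.35, and Tmod1, which caps the slow end of the filament and binds tropomyosin, at 1.24 and 1.42. Lmod2, a leiomodin that nucleates actin, was at -1.20 and -1.11, and Tnni1, slow troponin I, at -1.05 and -1.03. The list medians were -0.40 and -0.46. Of 9 listed myosin heavy chains 7 were measured, with 1, Myh4, at least 2-fold higher on each diet. At least 2-fold lower were 2 on the control diet (Myh2 and Myh6) and 1 on genistein (Myh2). Counted on the brightest probe set per gene, 6 of the 9 genes described here were at least 2-fold lower on the control diet, where 7.65% of 10763 genes were, and 5 of 9 on genistein, where 6.60% of 10822 were. Under hybridisation control scaling 3 of 9 were on each diet (Myl2, Tpm3 and Tpm2 on the control diet, Myl2, Tpm3 and Mylk2 on genistein), and under quantile normalization 5 of 9 and 3 of 9. Of all probe sets 3.29% and 2.11% were at least 2-fold lower under hybridisation control scaling, and 6.67% and 6.13% under quantile normalization. The share of all genes was not counted under these scalings.

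The genes whose 4 signals ran most like those of each gene past 2-fold were found by the distance between log2 signals centred on their own mean, over 4 arrays and 9356 other genes above the floor on all of them. For Myl2 these were Mavs (distance 0.23), Scn4b (0.25) and Fgf1 (0.25), and for Myl3 they were Klhl38 (0.07), Pdk1 (0.09) and Myoz2 (0.09). For Mylk2 they were Nmnat3 (0.09), Echs1 (0.13) and Ddit4l (0.14). For Tpm2 they were Ppp2ca (0.05), Chchd3 (0.05) and Adprhl1 (0.06), and for Tpm4 they were Crip2 (0.04), Rapgef4 (0.06) and Coro1c (0.08). Tpm3 had no close neighbour, with Slc16a3 at 0.48, Acss1 at 0.77 and Mettl21c at 0.85. With 4 arrays many genes lie close by, and the names describe these arrays only.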

How the data were processed

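Soleus RNA of 8 rats per group was pooled and hybridised as 1 biotin-labelled sample per Affymetrix rat array. For each array the file deposited by the authors holds the intensity of every probe set on a linear scale, and GCOS 1.1 is named per the submitters' processing notes. The sources used here give neither a scaling target nor a genome build. The deposited intensities were used with no further normalization, as log2 after a floor at the 40th percentile (78.9 units). Of 31099 probe sets, 57 were controls, 20826 had 1 gene symbol and 436 several, none of which named one of the 9 genes. The number of arrays limits the precision. With 1 array per group no test was possible, so probe sets past 2-fold were counted beside the same count over all probe sets with 1 symbol. The functions were tested on simulated data. Every probe set of the 9 genes is reported, and the 3 genes most like each of the 6 genes past 2-fold on its brightest probe set were named by distance. The genes and lists were chosen with earlier results of these data known. Alternatives were median, quantile and hybridisation control scaling, floors at the 20th and 60th percentiles, no floor with a pseudocount of 16, and the mean or median of a gene's probe sets. Leaving out suffixes s and x, or Mylpf, was added after seeing the data. Python 3.11.15, pandas 2.3.3 and numpy 2.4.6 were used.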

Additional observations from a re-analysis of the deposited data

Results flagged for a closer look

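With 1 array per group, a probe set is listed here when its ratio is above 0 in one condition and below 0 in the other. The difference was not tested in any of these cases. In the denervation ratio, Tpm4 1368838_at did so across the diets (-1.21 and 0.09, a difference of 1.30, with the genistein value at -0.01 under quantile normalization), as did Tpm1 1371241_x_at (difference -0.22) and Tpm3 1387617_at (0.04), both smaller than 0.34, the SD of this difference among probe sets that share a gene.

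In the diet ratio, the sign differed between sham and denervated muscle for both Mylk2 probe sets, with differences (denervated minus sham) of -1.10 for 1398820_at and -0.71 for 1398821_s_at, and for both Tpm4 probe sets, with 1.30 and 0.76. It differed for both Tpm2 probe sets, with 1.63 for 1372219_at and 0.19 for 1392976_at. Among Tpm1 probe sets it differed for 1370287_a_at (1.02), 1395794_at (0.89) and 1368724_a_at (-0.19). Among Tpm3 probe sets it differed for 1371239_s_at (1.26), 1370340_x_at (1.01), 1398303_s_at (0.74), 1370339_at (0.52), 1383986_at (0.52), 1387918_at (0.40), 1389846_at (0.10) and 1388268_at (-0.84). The values 0.19, -0.19 and 0.10 are also smaller than 0.34. Of these 17 probe sets 12 kept opposite signs under median scaling, where Tpm1 1368724_a_at, Tpm2 1392976_at and Tpm3 1370339_at, 1383986_at and 1389846_at had the same sign in both conditions. Under quantile normalization 15 kept them, the exceptions being 1368724_a_at and 1389846_at, and under hybridisation control scaling all 17 did. The diet ratios of all probe sets lay near evenly about 0, with 7272 below and 7495 above in sham muscle. In denervated muscle 6949 lay below and 7386 above. How many of all probe sets changed sign was not counted, so nothing is read from the number 17.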

How the results depend on the processing

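No paired analysis was possible because each group is 1 array. All 20 ratios past 2-fold on the control diet and all 17 on genistein kept their sign under the 6 alternatives of scaling and floor that gave a value, and 14 of each stayed past 2-fold in all of those. In control-fed rats the count of higher probe sets past 2-fold became 2 under quantile normalization and 2 under hybridisation control scaling, from 1. On genistein it became 1 with the floor at the 60th percentile, from 2. The diet count became 0 under quantile normalization in sham muscle, from 1, and 1 with the floor at the 60th percentile in denervated muscle, from 3. The counts of lower probe sets stayed within 1.5 times the reported ones, at 13 to 19 on the control diet and 10 to 17 on genistein. The 10 came from leaving out the 6 probe sets with suffix s or x, so it counts among fewer probe sets. Over the scalings and floors the genistein count was 12 to 17. The number measured was 25 with the floor at the 60th percentile and 30 with no floor. The share of higher among all probe sets past 2-fold in the diet ratio of denervated muscle was 86.7%, 65.9% under median scaling and 76.2% under quantile normalization. Of 36 gene ratios, 18 moved by more than the SD between probe sets under hybridisation control scaling and 12 under quantile normalization. With the mean of a gene's probe sets 11 did, and with the median 10. Under median scaling all 36 stayed within that SD. Signals near the floor, as on several Tpm1 and Tpm3 probe sets, give bounds only.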
